A study of Mus musculus with 8 samples.

Results

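The 8 genes described here encode the troponin subunits of striated muscle, and they were taken by symbol from the mm10 (GRCm38) gene annotation. They are Tnnt3, Tnni2 and Tnnc2 of fast fibres, Tnnt1, Tnni1 and Tnnc1 of slow fibres, and Tnnt2 and Tnni3 of the heart. They are 8 of 21938 protein-coding genes. A peak was assigned to a gene if it shared at least 1 base with the gene body or with the region within 25 kb of any annotated transcription start site (TSS) of the gene. The study immunoprecipitated and sequenced chromatin of skeletal muscle nuclei. The mice were of the strain C57/Bl6J and the genotype WT (wild type), with an age of 10 to 12 weeks. The antibodies were against the glucocorticoid receptor (GR), RNA polymerase II (Pol2), H3K27ac, H3K4me3, H3K4me1 and CTCF, with 1 library each, and 2 input libraries completed the 8 samples. The labels name no treatment, and the muscle used and the number of mice pooled are left unstated by them. With 1 library per antibody there was no replicate, no comparison of conditions and no test, and every value below is a description of a single peak list.

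Troponin is the calcium switch of the thin filament. Troponin C binds calcium, troponin I holds actin and myosin apart at rest, and troponin T anchors the complex to tropomyosin. Each subunit is made from separate genes in fast fibres, slow fibres and heart, except that the slow troponin C gene, Tnnc1, also serves the heart, so the set of active troponin genes is a classical readout of fibre type. Genes for T and I subunits lie side by side in the genome as pairs. GR is the hormone-activated receptor for glucocorticoids, H3K4me3 marks promoters, H3K4me1 marks promoter flanks and enhancers, H3K27ac marks active promoters and enhancers, and CTCF is an architectural DNA-binding protein.

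Several sequences at these loci are shown because the peak data bear on them directly: start regions with and without Pol2, and peaks of GR and CTCF. The promoters run from 250 bases upstream of a RefSeq start to the base before it, and come from RefSeq on GRCm38.p6, as do the peak sequences, which are given on the + strand. The table used held 8 promoters of 6 of the 8 genes. The first 4 sequences are the promoter of the fast gene Tnnc2 (chr2:164779735-164779984, - strand), that of the slow gene Tnnt1 (chr7:4515976-4516225, - strand), that of Tnnc1 (chr14:31208062-31208311, + strand) and the first of the cardiac gene Tnnt2 (chr1:135836084-135836333, + strand). Then come a GR peak in an intron of Tnnc2 (chr2:164779042-164779243), the GR peak upstream of Tnni1 that held a full GR element (chr1:135763676-135763912) and the stronger of the CTCF peaks in Tnnt1 introns (chr7:4513273-4513563). Capitals mark motif matches: an SP1 box (GGGCGG) in Tnnc2, an SP1 box and a TATA box (TATAAA) in Tnnt1, an MCAT element on the opposite strand (GGAATG) in Tnnc1, and E-boxes (CAGCTG) with an MCAT element (CATTCC) in Tnnt2. In the peaks they mark a MEF2 match and then an E-box in Tnnc2, an E-box and the GR element upstream of Tnni1, and the CTCF core in Tnnt1.
Tnnc2 promoter: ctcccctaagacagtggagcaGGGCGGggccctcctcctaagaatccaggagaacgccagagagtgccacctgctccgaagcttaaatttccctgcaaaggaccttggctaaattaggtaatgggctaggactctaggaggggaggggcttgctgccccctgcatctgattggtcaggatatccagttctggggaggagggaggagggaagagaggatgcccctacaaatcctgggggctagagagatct
Tnnt1 promoter: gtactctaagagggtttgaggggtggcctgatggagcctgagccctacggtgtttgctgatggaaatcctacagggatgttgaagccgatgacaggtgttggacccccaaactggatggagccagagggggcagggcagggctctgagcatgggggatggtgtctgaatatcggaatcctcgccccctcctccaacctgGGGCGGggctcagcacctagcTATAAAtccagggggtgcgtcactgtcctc
Tnnc1 promoter: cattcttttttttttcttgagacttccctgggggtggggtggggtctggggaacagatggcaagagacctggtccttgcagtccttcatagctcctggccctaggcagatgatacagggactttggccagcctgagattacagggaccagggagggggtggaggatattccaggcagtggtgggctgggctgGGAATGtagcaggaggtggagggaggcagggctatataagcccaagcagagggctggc
Tnnt2 promoter: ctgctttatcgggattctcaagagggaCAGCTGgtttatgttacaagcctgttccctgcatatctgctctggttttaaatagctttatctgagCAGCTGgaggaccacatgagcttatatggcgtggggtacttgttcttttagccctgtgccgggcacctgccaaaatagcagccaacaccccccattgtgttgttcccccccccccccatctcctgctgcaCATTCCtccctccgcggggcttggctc
Tnnc2 intronic GR peak: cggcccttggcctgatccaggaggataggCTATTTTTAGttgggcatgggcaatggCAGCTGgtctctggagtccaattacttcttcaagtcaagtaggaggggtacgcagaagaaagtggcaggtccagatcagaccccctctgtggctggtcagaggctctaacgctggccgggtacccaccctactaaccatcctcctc
Tnni1 upstream GR peak: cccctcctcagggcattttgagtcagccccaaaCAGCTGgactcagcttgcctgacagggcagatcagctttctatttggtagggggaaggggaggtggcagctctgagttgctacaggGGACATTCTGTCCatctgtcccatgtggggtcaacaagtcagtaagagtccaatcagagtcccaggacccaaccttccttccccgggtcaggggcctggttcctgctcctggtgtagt
Tnnt1 intronic CTCF peak: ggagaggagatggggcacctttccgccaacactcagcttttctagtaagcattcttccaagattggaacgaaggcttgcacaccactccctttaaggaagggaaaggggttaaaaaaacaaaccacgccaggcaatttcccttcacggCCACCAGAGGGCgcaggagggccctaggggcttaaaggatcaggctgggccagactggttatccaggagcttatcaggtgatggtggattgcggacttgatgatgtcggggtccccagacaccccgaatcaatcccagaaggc

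The tissue label was checked against marker genes. All 9 listed markers of skeletal muscle fibres, among them Acta1 and Ckm, had GR, Pol2, H3K27ac and H3K4me3 peaks within 1 kb of a TSS. For Pol2 this held for 1 of 7 cardiomyocyte markers (Myl4), 1 of 5 satellite cell, 1 of 5 endothelial, 4 of 5 fibroblast, 1 of 5 immune, 1 of 4 Schwann cell, 0 of 4 smooth muscle and 0 of 4 adipocyte markers. The cardiomyocyte markers Nppa, Nppb, Myl7 and Myh6 had neither Pol2 nor H3K4me3 there. The part of other cell types in the troponin values was not tested. In whole-tissue chromatin, few nuclei that carry a mark and a weak mark in every nucleus cannot be told apart.

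At their start sites the fast troponin genes carried GR, Pol2, H3K27ac and H3K4me3, and the slow and cardiac genes carried almost none of these. A GR peak lay within 1 kb of a TSS of 3 of the 8 genes, the fast ones Tnnt3, Tnni2 and Tnnc2, beside 43.4% of all protein-coding genes. Pol2 was found at the same 3 genes, beside 47.1% of all genes. H3K27ac was found at these and at the slow gene Tnni1, which makes 4 of 8, beside 52.4%. H3K4me3 was found at 5 of 8, the fast genes with Tnni1 and Tnnc1, beside 61.5%. With so few genes, all of these counts are near the background. The split by fibre type depended on the settings. At 2 kb GR was at 5 genes, with the slow genes Tnni1 and Tnnc1 added, and Pol2 at 4, with Tnnc1 added. With the strongest 50% of H3K4me3 peaks, that mark was left at 2 genes, the fast Tnnc2 and the slow Tnnc1. H3K4me1 lay within 1 kb of a TSS of all 8 genes, beside 65.8% of all genes. With the 5′ end of each gene alone H3K4me1 was left at 6 genes, without Tnnt1 and Tnni3. It was also at 6 with the widest 50% of its peaks or by peak midpoint. CTCF lay within 1 kb of a TSS of 1 of 8, the slow gene Tnnt1, beside 7.54%.

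At neither slow gene with H3K4me3 did the peak lie on a coding start of its own. At Tnni1 a weak H3K4me3 peak of 191 bases, with a fold of 4.27 over control in the authors' list, lay 296 bases from the most upstream start, which the annotation gives to a processed transcript without a coding sequence. An H3K27ac peak of 1003 bases covered that same start. The coding starts of Tnni1 in GENCODE's basic set were at least 18872 bases from the nearest H3K4me3 peak and at least 4334 bases from the nearest H3K27ac peak. At Tnnc1 the H3K4me3 peak was that of Nisch, the gene on the opposite strand that overlaps it, and its edge came to 969 bases from the Tnnc1 start. The nearest Pol2 and GR peaks of Tnnc1, 1321 and 1402 bases away, also lay at the Nisch start. When coding starts of that basic set alone were counted, H3K27ac was left at 3 genes and H3K4me3 at 4.

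The wider window, the gene body or 25 kb from a TSS, separated the genes less. At least 1 GR peak fell in it for 7 of 8 genes (60.8% of all genes), Pol2 for 7 (59.1%), H3K27ac for 7 (65.6%), H3K4me3 for 8 (71.8%), H3K4me1 for 8 (78.2%) and CTCF for 8 (33.0%). Tnnt2, cardiac troponin T, was the gene without GR, Pol2 or H3K27ac. The wide window reaches into neighbouring genes, and the account of each locus below says which peaks were nearest to another gene. For CTCF the 8 genes shared 10 distinct peaks, 3 of which lay in the windows of a pair of troponin genes.

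**Figure D1:**
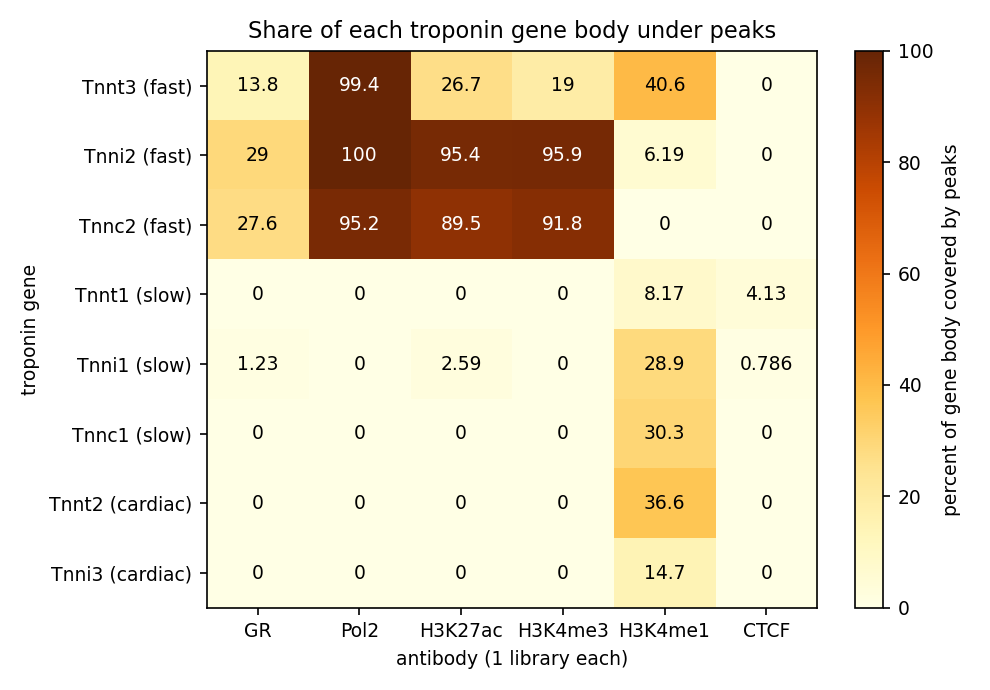
Percent of each troponin gene body (rows, with fibre type) under peaks of each antibody (columns, 1 library each), with the colour scale from 0 to 100 percent. Pol2 covered 95.2 to 100 percent of the 3 fast genes and 0 percent of the other 5, whereas H3K4me1 was present on 7 of 8 genes.

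Coverage of the gene bodies is a share per length, although a peak of a given width fills more of a short gene than of a long one. Pol2 peaks covered 99.4% of the 17174 bases of Tnnt3, 100% of the 2603 bases of Tnni2 and 95.2% of the 2807 bases of Tnnc2. In Tnnt1, Tnni1, Tnnc1, Tnnt2 and Tnni3 they covered 0%. The groups did not overlap: Pol2 was on every fast gene and on no slow or cardiac gene body, as the plot of body coverage shows. A body without Pol2 was common, at 53.6% of all protein-coding genes, so that the 5 values of 0% are the usual state and the 3 high values the rare one. Coverage of at least 90% was reached by 25 protein-coding genes, or 0.114%, and 3 of these were troponin genes. The other 22 included Myh4 (fast myosin heavy chain), Atp2a1 (the calcium pump of fast fibres), Acta1 (skeletal actin), Pvalb (parvalbumin, a calcium buffer of fast fibres), Aldoa, Eno3 and Pgam2 (glycolysis), Tcap, Pdk4, Trim63 and the stress-response genes Ddit4, Txnip and Jun. Long genes are seldom covered so fully. Of the 11057 protein-coding genes at least as long as Tnnt3, only 3 had Pol2 over as large a share, counting Tnnt3 itself. For Tnni2 these were 6 of 19856 genes and for Tnnc2 12 of 19695.

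**Figure D2:**
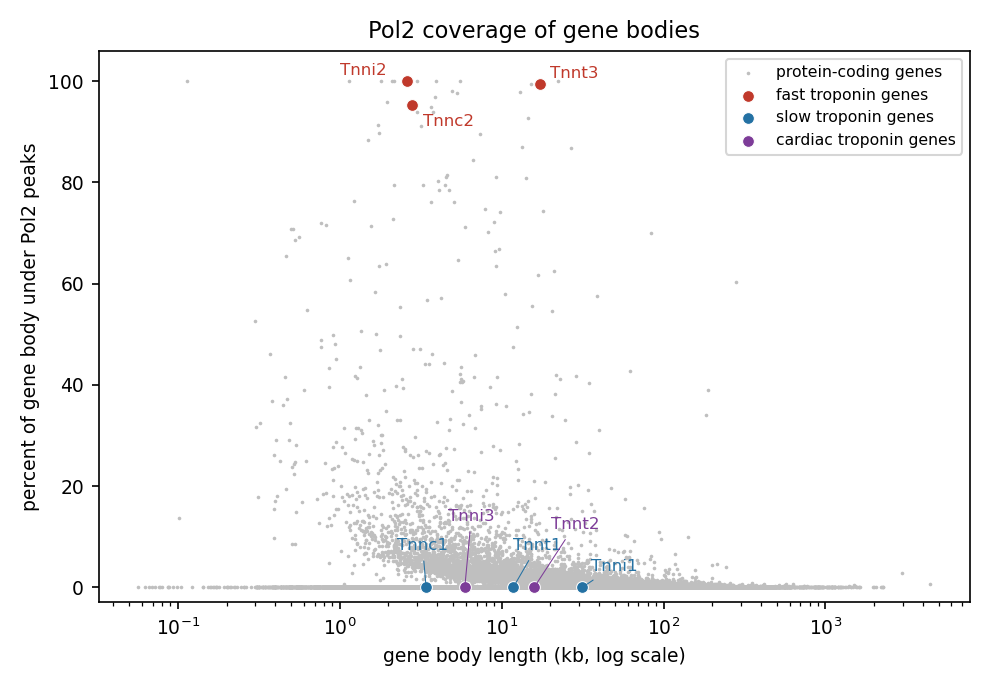
Percent of the gene body under Pol2 peaks against gene body length in kb (log scale) for all 21938 protein-coding genes (grey) and the 8 troponin genes (coloured by fibre type). Tnnt3, Tnni2 and Tnnc2 lie between 95.2 and 100 percent, and the other 5 lie at 0.

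Pol2 did not stop at the gene ends. With gaps under 500 bases bridged, the Pol2 run over Tnnt3 was 29888 bases long, began 10246 bases before the 5′ end and ended 2468 bases past the 3′ end. The run over Tnni2 was 7629 bases long, with 1543 bases before the 5′ end and 3483 past the 3′ end. Tnnc2 had a run of 8081 bases that began only 153 bases before the 5′ end and continued for 5121 bases past the 3′ end. Part of the Tnnc2 run lies in the gene Ube2c, which overlaps the 3′ end of Tnnc2 on the opposite strand, and part of the Tnnt3 run lies in the end of Lsp1 and in Prr33, annotated as a lincRNA, and peak lists carry no strand. In the 5 kb before the 5′ end, Pol2 covered 90.3% at Tnnt3, 30.9% at Tnni2 and 9.16% at Tnnc2, and 62.5% of all genes had none. The slow gene Tnnc1 had 9.02% there, about as much as Tnnc2 and all of it at the start of Nisch, and the other 4 genes had 0%. In the 5 kb past the 3′ end, it covered 49.4% at Tnnt3, 68.3% at Tnni2 and 93.1% at Tnnc2, while 88.9% of all genes had no Pol2 there. Tnnt1 had 11.8% in that flank, all of it at the start of Ppp1r12c, and the other 4 genes had 0%. The widest single Pol2 peak at Tnnt3 (11249 bases) was the 8th widest of 20192 in the list, that at Tnni2 (7247 bases) the 13th and that at Tnnc2 (5147 bases) the 19th.

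The histone marks divided the fast genes by size. H3K27ac covered 26.7% of Tnnt3, 95.4% of Tnni2 and 89.5% of Tnnc2, and H3K4me3 covered 19% of Tnnt3, 95.9% and 91.8%. In the short genes Tnni2 and Tnnc2 a single promoter mark therefore spanned nearly the whole gene, and in Tnnt3 it ended inside it. The H3K4me3 peaks at the starts were 2888, 2517 and 3283 bases wide, with folds over control of 14.39, 13.68 and 18.85 in the authors' list. The neighbouring genes Dnaaf3 (5.34) and Lad1 (4.14) had lower H3K4me3 folds near their starts in the same list, with Pol2 over 0% of the body. Some of the other neighbouring genes had higher folds, with either little or much Pol2. The folds were 55.53 at Ppp1r12c, 43.64 at Snx21 and 32.98 at Mrpl23, with Pol2 over 0.804%, 4.54% and 2.73% of the body. At Phlda3 the fold was 43.81, with Pol2 over 93.9%. At Ube2c it was 21.44, with Pol2 over 72.1%, but Ube2c overlaps Tnnc2 and part of the Tnnc2 Pol2 run lies in it. The Pol2 peak nearest to the Ube2c start was 111 bases wide. H3K4me1 went the other way within the fast set. It covered 40.6% of Tnnt3, 6.19% of Tnni2 and 0% of Tnnc2.

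On the slow and cardiac genes H3K4me1 was the main mark of the body. Its share was 8.17% in Tnnt1, 28.9% in Tnni1, 30.3% in Tnnc1, 36.6% in Tnnt2 and 14.7% in Tnni3, and the range of the fast genes, 0 to 40.6%, enclosed these values. The median over all protein-coding genes was 7.52%. At Tnnt2 an H3K4me1 peak of 2939 bases lay over the first start, with 3 more peaks further into the gene. At Tnnc1 one of 2259 bases lay over the start. H3K27ac was absent from the bodies of Tnnt1, Tnnc1, Tnnt2 and Tnni3 and covered 2.59% of Tnni1, and H3K4me3 covered 0% of all 5 bodies. Of all protein-coding genes, 46.2% had no H3K27ac and 37.2% no H3K4me3 in the body.

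**Figure D3:**
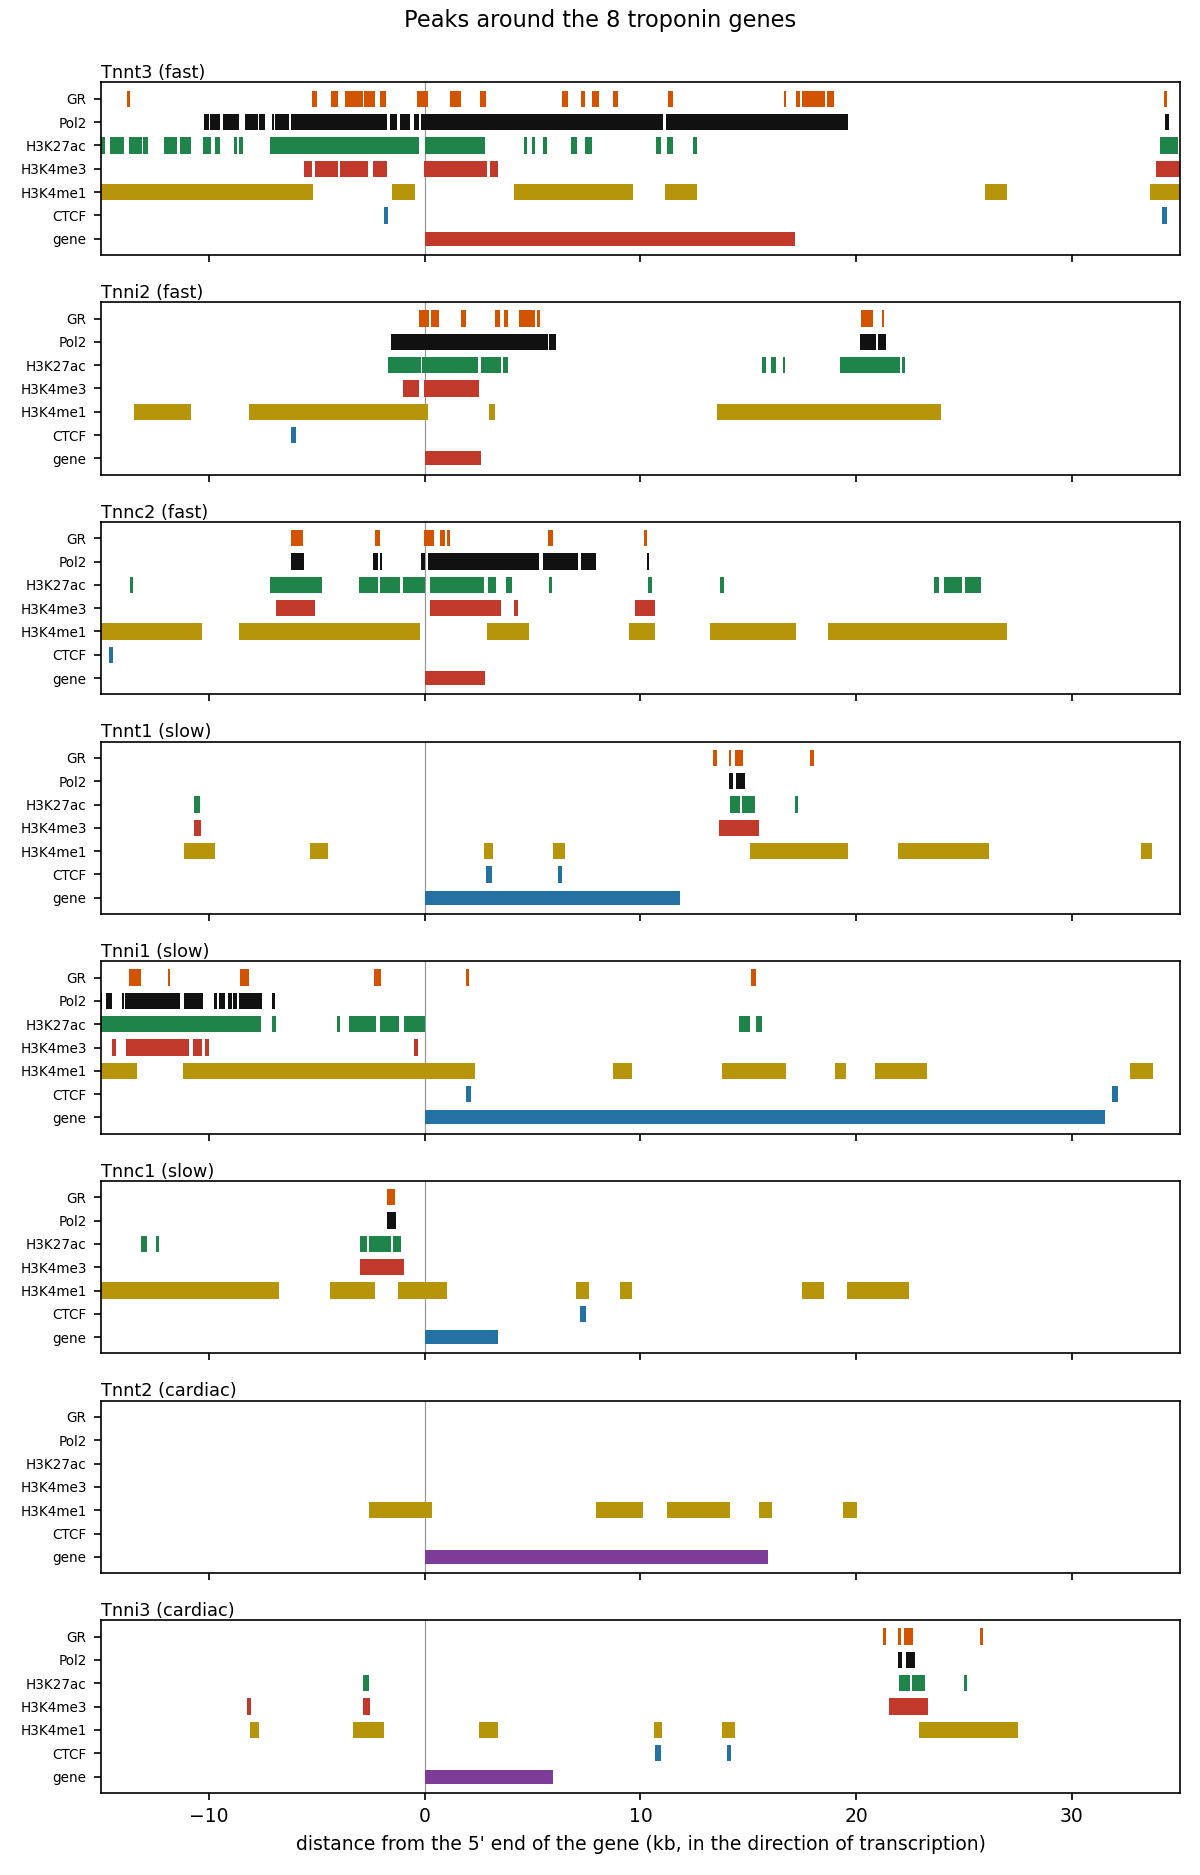
Peaks of the 6 antibodies around each troponin gene, drawn to scale against distance from the 5′ end of the gene in kb in the direction of transcription, from 15 kb before it to 35 kb after it. Peaks outside the 25 kb window of a gene are not drawn, and the bar at the bottom of each map is the gene body. Continuous Pol2 over the fast genes contrasts with H3K4me1 alone over Tnnt2.

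GR peaks were most numerous at fast troponin T. Tnnt3 had 21 GR peaks in its window, more than 99.9% of protein-coding genes, Tnni2 had 9 (more than 98.1%) and Tnnc2 had 8 (more than 97.2%). Tnni1 had 7 (more than 95.9%), Tnnt1 and Tnni3 had 4 each (more than 84%), Tnnc1 had 1 (more than 39.2%) and Tnnt2 had 0. These counts grow with the length of a gene and with the neighbours in its window. The order below Tnnt3 depended on the settings. With peaks less than 500 bases apart merged, Tnni1 had 7, Tnnc2 had 6 and Tnni2 had 4. With the widest 50% of peaks, Tnni1 and Tnni2 had 5 each and Tnnc2 had 4. Of the 21 peaks at Tnnt3, 16 had a TSS of Tnnt3 as the nearest protein-coding start, as had 7 of 9 at Tnni2 and 4 of 8 at Tnnc2. Of the 7 peaks at Tnni1, 3 did, and none did at Tnnt1, Tnnc1 or Tnni3. In the gene bodies, GR covered 13.8% of Tnnt3, 29.0% of Tnni2 and 27.6% of Tnnc2, then 1.23% of Tnni1 and 0% of the rest, and 54.8% of all protein-coding genes had no GR in the body.

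At Tnnt3 (chr7:142498836-142516009, + strand), 9 GR peaks overlapped the gene body. One lay over the first start (chr7:142498462-142498970, 509 bases), another of 547 bases in an intron, and one of 296 bases over an internal coding start (chr7:142501379-142501674). Upstream, 4 peaks of 276 to 843 bases between chr7:142494475-142497047 had a TSS of Tnnt3 as the nearest protein-coding start and carried Pol2, H3K27ac and H3K4me3. All 4 peaks lay inside Prr33, annotated as a lincRNA, and the first also lay inside the end of Lsp1. A CTCF peak of 185 bases, with a fold of 5.63, lay 1793 bases before the start and overlapped the last of them. At Tnni2 (chr7:142441808-142444410, + strand), GR peaks of 464, 336 and 228 bases overlapped the gene body, and 4 more followed past the 3′ end. At Tnnc2 (chr2:164777161-164779967, - strand), a GR peak of 468 bases covered the starts, and peaks of 202 and 123 bases lay in an intron. A further peak of 235 bases lay 2206 bases upstream, with H3K4me1 and H3K27ac and without H3K4me3.

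Some GR peaks past the 3′ ends of the fast genes carried Pol2 and none of the 3 histone marks. At Tnnt3 these were all 3 GR peaks in the 5 kb past the end, of 170, 1052 and 304 bases. The middle one (chr7:142516318-142517369) was the 44th widest of 23188 GR peaks. At Tnni2 they were 2 of 4, of 744 and 132 bases (chr7:142446154-142446897 and chr7:142447021-142447152), and the other 2 carried H3K27ac. Tnnc2 had 1 GR peak there, of 239 bases, and it carried H3K27ac. A GR peak of this kind was found past 27 protein-coding genes, or 0.123%. Of the 1573 GR peaks without any of these marks in the whole list, 73 (4.64%) overlapped Pol2. This feature was chosen after its values were seen.

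**Figure D4:**
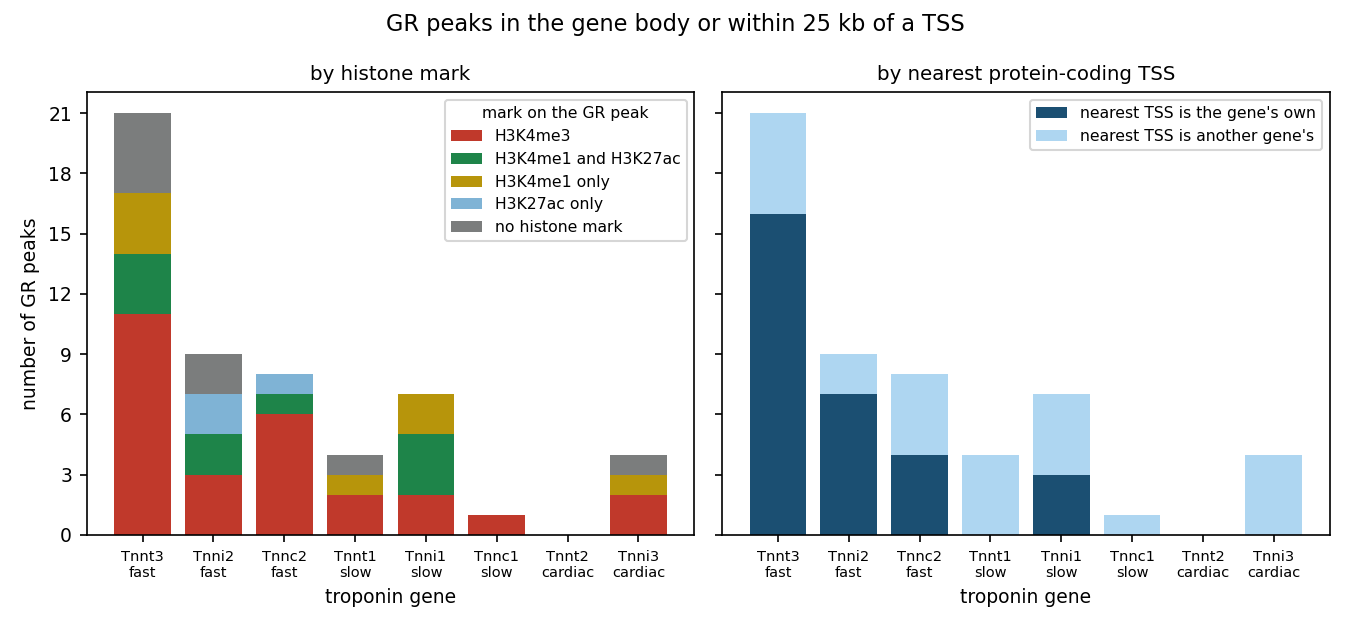
Number of GR peaks in the window of each troponin gene, stacked on the left by the histone marks that the peak overlapped and on the right by whether the nearest protein-coding TSS was the gene's own. Tnnt3 had 21 peaks, 16 of them nearest to its own start, while the 4 peaks of Tnnt1 and of Tnni3 are the same peaks and were nearest to another gene.

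Over all 8 windows there were 50 distinct GR peaks. Of these, 25 (50%) overlapped H3K4me3, 9 (18%) overlapped H3K4me1 and H3K27ac without H3K4me3, 6 (12%) H3K4me1 alone, 3 (6%) H3K27ac alone and 7 (14%) no mark. Over all GR peaks the shares were 53.2%, 19.3%, 19.9%, 0.811% and 6.78%. Pol2 overlapped 43 of the 50 peaks (86%), compared with 11906 of 23188 GR peaks (51.3%). Pol2 peaks covered 95.2 to 100% of the fast gene bodies and ran past the gene ends, so GR peaks there overlap Pol2 by position. The share of 86% is thus not independent of that Pol2 coverage. The peaks without Pol2 were 2 of the 21 in the window of Tnnt3, both nearest to Lsp1, 3 of the 7 at Tnni1 and 2 of the 4 shared by Tnnt1 and Tnni3. All 9 at Tnni2 and all 8 at Tnnc2 carried it.

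Slow troponin I, Tnni1 (chr1:135779434-135810989, + strand), had more signal around it than the other slow genes, most of it at a neighbour. Its 12 Pol2 peaks were all nearest to Phlda3, a gene that ends 10297 bases upstream and was itself under Pol2 over 93.9% of its body. Of its 7 GR peaks, 4 were nearest to Phlda3 too, among them the printed peak with the GR element, which also overlapped H3K4me1, H3K27ac and Pol2. The 3 nearest to Tnni1 lay 2200 bases before its first start (327 bases, with H3K4me1 and H3K27ac), in an exon (161 bases, with H3K4me1) and in an intron 4739 bases before a coding start (228 bases, with H3K4me1), and none carried Pol2. The exonic peak overlapped a CTCF peak of 248 bases with a fold of 10.49. H3K27ac peaks of 505 and 290 bases flanked the intronic GR peak without touching it.

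Slow troponin T, Tnnt1 (chr7:4504570-4516382, - strand), and cardiac troponin I, Tnni3 (chr7:4518305-4524229, - strand), are neighbours. Their windows held the same 4 GR peaks and the same 2 Pol2 peaks, all nearest to Ppp1r12c, which starts 2889 bases past the 3′ end of Tnnt1. Both windows also held an H3K4me3 peak (chr7:4526775-4527079, 305 bases, fold 5.86) that overlapped H3K27ac and H3K4me1. It lay inside the body of Dnaaf3, and its nearest protein-coding start was the first of Tnni3, 2698 bases away. The coding start of Tnni3 in GENCODE's basic set was 4247 bases from it. Dnaaf3, which overlaps the 5′ end of Tnni3, had a small H3K4me3 peak at its own start (205 bases, fold 5.34) and no Pol2. Inside Tnnt1 the data showed 2 spots with both H3K4me1 and CTCF. The CTCF peaks had folds of 7.28 (chr7:4510019-4510215, −log10 q 7.7) and 10.08 (chr7:4513273-4513563, −log10 q 13.8) in the authors' list, and the second is the one printed above with the CTCF core. The nearest Pol2 peak was 14100 bases from the first Tnnt1 start and 21947 bases from the first Tnni3 start. The printed Tnnt1 promoter, with its TATA and SP1 boxes, thus had no GR, Pol2, H3K27ac or H3K4me3 peak within 1 kb.

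Slow and cardiac troponin C, Tnnc1 (chr14:31208312-31211729, + strand), had 1 GR, 1 Pol2 and 1 H3K4me3 peak in its window, and all had Nisch as the nearest gene. Its own start had H3K4me1. Cardiac troponin T, Tnnt2 (chr1:135836354-135852260, + strand), was the emptiest locus. The GR peak nearest to its first start was 41578 bases away, the nearest H3K27ac peak 41286 bases and the nearest Pol2 peak 63853 bases. Its 7 H3K4me1 peaks, 1 H3K4me3 peak of 191 bases nearest to Lad1 and 1 CTCF peak 24927 bases upstream were all that its window held.

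Peaks in the gaps between paired T and I genes are given next, and the gaps differ in length and in the genes they hold. The fast pair Tnni2 and Tnnt3 on chromosome 7 is 54425 bases apart, with Lsp1, a gene best known from white blood cells, in the gap. Pol2 covered 24.7% of that gap, H3K27ac 47.6% and H3K4me1 62.4%, and 15 GR peaks fell in it. Between the slow gene Tnnt1 and the cardiac gene Tnni3 the gap of 1922 bases held 0 peaks of any of the 6 antibodies. The 25364 bases between Tnni1 and the cardiac gene Tnnt2 held 0 GR, Pol2 and H3K27ac peaks, 1 H3K4me3 peak, 3 H3K4me1 peaks and 1 CTCF peak.

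The motif scan covered both strands and counted exact matches unless stated. The GR element was searched as GNACA and TGTNC separated by 3 bases. It was in none of the 8 promoters of 300 bases (250 before to 50 after the start), and 0.475% of 32851 promoters held it. Among windows of 200 bases at GR peak midpoints it was in 1 of 50 (2%) at the troponin genes, the printed peak upstream of Tnni1, and in 5.52% of all GR peaks. The E-box, the letters bound by myogenic factors such as MyoD, was in 9 of the 50 windows (18%) compared with 18.2% of all. MCAT was in 6 (12%) compared with 10.2%, MEF2 in 3 (6%) compared with 2.79%, and the CArG box in 1 (2%) compared with 0.768%. These shares rest on few windows, and none of them is far from that of all GR peaks in number of windows. The CTCF core, with up to 1 mismatch, was in 7 of 10 CTCF windows (70%) compared with 62.2% of all.

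In the promoters, each of the motifs that matched did so in at most 2 of the 6 genes. The E-box was found at −68 and at −158 from the paired starts of Tnni1, which is 1 site seen from both, and at −223 and −157 in Tnnt2, with the E-box in 16.3% of all promoters. MCAT was at −27 in Tnnt2 and at −58 in Tnnc1 (14.7% of all). The SP1 box was at −229 in Tnnc2 and at −51 in Tnnt1 (35.7% of all), and the TATA box at −30 in Tnnt1 (13.6% of all). Only the exact letters TATAAA were counted as a TATA box, so the similar letters TATATAAG in the printed Tnnc1 promoter did not count. MEF2 (3.19% of all) and the CArG box (1.63% of all) had no match in the 8 promoters, and the promoter of Tnni3 matched none of the 7 motifs. The Tnnt2 promoter held the most matches, 3, and had no GR, Pol2, H3K27ac or H3K4me3 peak within 1 kb of its start.

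Other sarcomere genes were counted in lists by fibre type. Pol2 lay within 1 kb of a TSS of 10 of 10 listed fast genes, GR of 8, H3K27ac of 9 and H3K4me3 of 8, and the median Pol2 cover of the body was 62.1%. Myh4 and Atp2a1 led that list with 100%. Of 9 slow genes, Pol2 lay at 4, GR at 3 and H3K27ac and H3K4me3 at 4 each, and the median Pol2 cover was 0%. Over all protein-coding genes these marks lay at 47.1%, 43.4%, 52.4% and 61.5%, so the slow list was near that background for Pol2. The highest slow values were 0.881% in Tpm3, slow tropomyosin, and 0.434% in Myoz2. Of 10 cardiac, atrial or embryonic genes, Pol2 and H3K27ac lay at 1, GR at 0 and H3K4me3 at 2. Myl4, with 0.264%, was the only one with Pol2 in its body. Of 9 thin filament genes listed without a split by fibre type, Pol2, H3K27ac and H3K4me3 lay at 9 and GR at 8. Their median Pol2 cover was 18.1%, led by Acta1 (100%) and Tpm1 (86.7%). Over all protein-coding genes the median Pol2 cover was 0%.

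The genes most like each troponin gene were sought by Euclidean distance over the 6 body cover values, in percentage points, among 21213 protein-coding genes of at least 1 kb. For Tnnt3 they were Pdk4 (distance 16.4), Ucp3 (16.5) and Tpm1 (21.6), in which Pol2 covered 97.8%, 87% and 86.7%. For Tnni2 they were Lrrc30 (23.1), Pgam2 (27) and Txnip (28.3), and for Tnnc2 Lrrc30 (21.8), Tob1 (24.9) and Hist1h1c (27.5). Such distances depend on how common a pattern is. Of all protein-coding genes, 54.8% had no GR, 53.6% no Pol2 and 86.4% no CTCF in the body, while 25 genes reached 90% Pol2 cover. A nearly empty body thus finds close matches easily. The slow and cardiac genes had far closer neighbours, nearly all of them with H3K4me1 and little else. For Tnnt1 they were Aanat, Kcnk15 and Hipk4 (0.654 to 1.77), for Tnni1 Lpp, Zbtb20 and Mrvi1 (1.34 to 1.48) and for Tnnc1 Esx1, Hoxc12 and Serpinb1c (0.073 to 0.2). For Tnnt2 they were Sncb, Hist2h3c2 and B3gnt4 (0.0051 to 0.364) and for Tnni3 Gpr50, Spn and Stap2 (0.000238 to 0.0606).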

How the data were processed

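The 8 samples were grouped by antibody from the labels, and all carry replicate number 1, so nothing was averaged or tested. Reads were processed with MACS2 (version not stated), Bowtie 1.0.0 and bcl2fastq 2.17.1.14 on the build mm10, per the submitters' processing notes, which state no thresholds. The values deposited by the authors are peak positions in bases. For H3K4me3 and CTCF there are also the authors' deposited score, a fold (ratio) over control, and −log10 p-values and −log10 q-values, told apart by their values since the columns have no header. Per the labels, CTCF and H3K4me3 had Input 2 as their control, and the other antibodies had Input 1. The depth of the libraries is unknown, so no interval or floor is given. A gene without a peak may lie below the authors' threshold.

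Gene models were GENCODE protein-coding genes on GRCm38. Overlap meant at least 1 shared base. Mitochondrial peaks (1 for Pol2, 5 for CTCF, 7 for H3K4me3 and 8 for GR) were left out. Computation used Python 3.11.15, numpy 2.4.6, pysam 0.24.0 and samtools 1.23.1, and the overlap code was tested on simulated peaks. Named beside the 8 genes are overlapping and nearest genes, the 3 genes nearest in pattern and the 2 genes of each sarcomere list with most Pol2. Other names, such as those with Pol2 over at least 90% of the body, were chosen after their values were seen. The genes and lists were chosen with earlier results of these data known. A planned protein comparison was not made, as no protein table was used here. The alternatives were other windows, starts, annotations, overlap rules and subsets of peaks.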

Additional observations from a re-analysis of the deposited data

How the results depend on the processing

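No paired analysis was possible because each antibody had 1 library and every sample carries the same replicate number, and no replicate could be left out. Of 110 alternatives to the summary values, 68 left the count within 1.5 times and 42 did not. At 2 kb from a TSS, GR was at 5 genes and CTCF at 3, and with the 5′ end of the gene alone CTCF was at 0. H3K4me3 was at 2 genes with the strongest 50% of its peaks and at 3 by peak midpoint. In a 5 kb window the genes with a peak were 4 for Pol2 and 3 for CTCF. In the gene body alone they were 4 for GR, 3 for Pol2, 4 for H3K27ac, 3 for H3K4me3 and 2 for CTCF. Distinct peaks, in the order GR, Pol2, H3K27ac, H3K4me3, H3K4me1 and CTCF, numbered 32, 13, 31, 12, 22 and 4 at 5 kb, then 88, 71, 117, 48, 100 and 18 at 100 kb, and 17, 5, 15, 4, 16 and 3 in the body. With the strongest or widest 50% of peaks they numbered 30 for GR, 34 for H3K27ac, 8 for H3K4me3 and 31 for H3K4me1. Merging peaks less than 500 bases apart left 14 for Pol2, 29 for H3K27ac and 18 for H3K4me3. Requiring a mark over 50% of the GR peak gave 10 peaks with H3K4me1 only and 5 with H3K27ac only. Counting marks within 1 kb gave 16 with H3K4me1 and H3K27ac, 1 with H3K4me1 only and 1 with H3K27ac only. All these moves come with the width of the window, the starts used, the overlap rule or the number of peaks counted.

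The 3 fast genes stayed above 90% Pol2 cover without their first 1 kb, with the widest 50% of peaks and, in a setting added after the data were seen, at a threshold of 80%. With 1 kb before the start added, Tnnc2 came to 74.2% and 2 genes were above 90%. Of 64 alternatives for single genes, 25 moved the value, mostly counts of GR peaks under other windows. Without replicates or depth no value here has an error between animals. Whether depth or calling thresholds differ between the 6 lists was not tested.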

Other observations

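The 27 protein-coding genes with a GR peak that overlapped Pol2 and no histone mark in the 5 kb past the 3′ end, as seen at Tnnt3 (3 peaks) and Tnni2 (2 peaks), included other highly covered muscle genes. Atp2a1 had 4 such peaks, and Acta1, Ckm, Myh4, Pdk4, Pvalb, Trim63 and Ucp3 had 2 each. Tpm2 and Ttn had 1 each. The rule itself requires Pol2 past the 3′ end, where 88.9% of all genes had none, so it favours genes with Pol2 beyond their end. Some of the 27 are neighbours rather than owners of a peak: Mark4 (3 peaks) and Rabep2 (2 peaks) end near Ckm and Atp2a1. Pdk4 and Ucp3 were also the genes whose pattern was nearest to that of Tnnt3.

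Myh1 and Myh2, the fast myosin heavy chains of type 2X and 2A fibres, were the fast genes without H3K4me3 within 1 kb of a TSS. Pol2 covered 33.1% of Myh1 and 0.744% of Myh2, compared with 100% of Myh4, the myosin of type 2B fibres.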
